A study of Mus musculus with 246 samples.

Results

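The corticotropin-releasing hormone (CRH) system was followed through 5 genes, taken by name from a table of 56691 genes: the ligands Crh (ENSMUSG00000049796.5) and Ucn (ENSMUSG00000038676.7), the receptors Crhr1 (ENSMUSG00000018634.11) and Crhr2 (ENSMUSG00000003476.17), and the binding protein Crhbp (ENSMUSG00000021680.9). Poly-A RNA was sequenced from bilateral punches of 6 brain regions of 41 adult male mice of the outbred CD1 strain, so each library holds 1 region of 1 mouse. Cortex was taken at a medial prefrontal (mPFC) and an anterior cingulate (ACC) level. The deeper punches were the shell of the nucleus accumbens (Nacc), the basolateral nuclei of the amygdala (BLA), the dorsomedial part of the thalamus (DMT) and the ventral part of the hippocampus (vHipp). Early life adversity (ELA) was limited bedding and nesting material for the dam and litter during the first days after birth. Dams were injected with a gel that held SAFit2, an inhibitor of the stress-related co-chaperone FKBP51, or with the empty gel, and pups were exposed through the milk. Ctrl_Veh mice had standard nesting and the vehicle gel, ELA_Veh mice had ELA and the vehicle gel, and ELA_SAFit2 mice had ELA and SAFit2. All mice thus came from injected dams, and no group had SAFit2 without ELA. Brains were collected without social interaction (7 mice per condition) or after 10 min with an unfamiliar mouse (6 Ctrl_Veh, 7 ELA_Veh and 7 ELA_SAFit2). The labels name no litter, so p-values between conditions and sets measure the spread between mice, some of which may be siblings. The set with interaction and any other difference in the handling of that set cannot be told apart. Tests between regions took the 6 libraries of a mouse as independent, and calls with a block for the mouse are given at the end.

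CRH is best known as the hypothalamic peptide that starts the hormonal stress response, but many neurons outside the hypothalamus make it as a local transmitter, among them GABAergic interneurons of the cortex and neurons of the central amygdala. CRH binds the Gs-coupled receptor CRHR1 with high affinity. Urocortin, the product of Ucn, binds CRHR1 and CRHR2, and the related urocortins of Ucn2 and Ucn3 prefer CRHR2. The secreted CRH-binding protein holds CRH and urocortin and keeps them from the receptors. Both receptors raise cyclic AMP, and cyclic AMP acts on genes through the factor CREB, whose palindromic site reads TGACGTCA with TGACG as its shorter form.

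Promoters of RefSeq genes (GRCm38.p6, 250 bases before to 50 after the start) were at hand for 4 of the 5 genes, all but Crh. A pair of them is shown here because they hold a cyclic AMP response element, in whole or in its short form. In Ucn it is the full palindrome, which 1.79% of 32851 promoters hold on either strand. In Crhbp it is the short form alone, which 20.8% of the promoters hold on either strand and which lies within the palindrome of Ucn. Neither form was found in the windows of Crhr1 and Crhr2. Capitals mark the element, the sequences run 5′ to 3′ on the gene's strand, and a match is a description of letters and not of a bound site.
Crhbp, minus strand, chr13:95444782-95445081: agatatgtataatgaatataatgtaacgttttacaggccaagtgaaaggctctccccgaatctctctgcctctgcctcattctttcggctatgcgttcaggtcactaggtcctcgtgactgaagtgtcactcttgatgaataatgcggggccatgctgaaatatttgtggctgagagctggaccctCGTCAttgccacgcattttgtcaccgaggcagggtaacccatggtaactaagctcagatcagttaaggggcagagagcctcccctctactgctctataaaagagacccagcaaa
Ucn, minus strand, chr5:31138846-31139145: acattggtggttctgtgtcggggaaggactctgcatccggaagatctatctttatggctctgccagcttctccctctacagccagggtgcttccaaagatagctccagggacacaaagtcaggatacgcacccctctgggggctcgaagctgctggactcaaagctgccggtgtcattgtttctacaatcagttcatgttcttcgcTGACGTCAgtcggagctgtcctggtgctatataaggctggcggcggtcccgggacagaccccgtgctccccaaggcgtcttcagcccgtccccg

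Levels are CPM, a library's counts scaled to a common total, after TMM scaling over all libraries. They are not scaled to gene length, so they are compared between regions and groups and never between genes. Libraries held 20804247 to 43351424 estimated counts. In the Nacc, 12 of 41 libraries (6 of them without interaction) matched the expression of another mouse better than that of their label, and 0 did in the other regions, so the calls in the Nacc were also made without them. They were the same: the members' regional pairs stayed at 14, 13, 14, 13 and 11 (Crh, Crhr1, Crhr2, Crhbp, Ucn), and 0 tests of a member passed within the Nacc. A change of mouse label does not change a library's region, and no member passed within the Nacc with all libraries either. The agreement thus says little about the mouse labels. Avp, Oxt, Sim1 and Otp, which mark the paraventricular hypothalamus, the main site of hormonal CRH, each had a median under 0.1 CPM in the mPFC, ACC, Nacc, DMT and vHipp, and in the BLA Oxt and Sim1 did. Choroid plexus genes summed to a median of 2588 CPM in the BLA punches (7.46 to 5586), against medians of 3.75 to 23.3 CPM elsewhere.

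Crh, the gene of the hormone itself, was most abundant in the BLA and the Nacc. The BLA held the highest level in 27 of 41 mice and the Nacc in 14. In the BLA Crh ranged from 3.69 to 18.2 CPM with a median of 10.2, and in the Nacc from 2.52 to 18.4 CPM with a median of 7.94. The ACC (2.19 to 6.04 CPM, median 3.54) and the mPFC (1.79 to 7.33 CPM, median 3.43) followed. Levels in the vHipp (0.363 to 1.76 CPM, median 0.960) and the DMT (0.0390 to 1.04 CPM, median 0.241) were lowest, and the DMT was the lowest of the 6 regions in 41 of 41 mice. In DMT libraries Crh rested on 1 to 30 counts. Of 15 pairs of regions, 14 differed for Crh at an adjusted p under 0.05 (edgeR's quasi-likelihood test with Benjamini-Hochberg adjustment over 17381 protein-coding genes). Between 39.1% and 83.9% of all genes did so in a pair, so a difference between regions is the usual case for a gene. The BLA exceeded the DMT 34.5-fold (log2 5.11, SE 0.13, adjusted p = 7.5e-104), and it exceeded the Nacc by far less, 1.29-fold (log2 0.37, SE 0.10, adjusted p = 0.000323). The mPFC and the ACC were the pair that did not differ beyond their spread (log2 −0.12, SE 0.10, adjusted p = 0.371).

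Ucn, the gene of urocortin, whose best-known source in the brain is the Edinger-Westphal nucleus of the midbrain, was at the limit of detection in every region. It had 0 counts in 7 of 41 libraries in the BLA, in 11 to 19 in the Nacc, ACC, mPFC and DMT and in 35 in the vHipp, and at most 15 counts in any library. A count of 0 allows up to 3 counts, which is 0.0715 to 0.158 CPM in these libraries, and 213 libraries lay at or under 3 counts. The Nacc had a median of 2 counts per library (0 to 15). Even so, 11 of 15 pairs of regions passed the test, as in the Nacc against the vHipp (log2 3.32, SE 0.42, adjusted p = 1.4e-13). With the libraries without interaction alone, 7 of 15 passed.

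Crhr1, the high-affinity receptor of CRH, had its highest levels in the cortical punches. The ACC (15.5 to 34.9 CPM, median 23.4) and the mPFC (11.1 to 35.9 CPM, median 23.1) did not differ beyond their spread (log2 −0.02, SE 0.07, adjusted p = 0.827). The Nacc had a median of 11.5 CPM (7.93 to 19.0), the BLA 10.2 CPM (6.31 to 14.9) and the vHipp 9.21 CPM (6.46 to 12.96). The BLA and the vHipp did not pass the test (log2 0.14, SE 0.07, adjusted p = 0.0798), and the other 13 pairs did. The DMT was lowest in 41 of 41 mice, with a median of 4.08 CPM (1.38 to 6.90), and the ACC exceeded it 5.71-fold (log2 2.51, SE 0.08, adjusted p = 2.586e-88).

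Crhr2, the receptor that urocortins bind with high affinity, had another order of regions. It was highest in the BLA, with a median of 8.46 CPM (3.10 to 13.1), and the BLA held the highest level in 40 of 41 mice. The Nacc (median 2.91 CPM, 1.29 to 4.02) and the vHipp (median 2.60 CPM, 1.54 to 4.58) did not differ beyond their spread (log2 0.05, SE 0.14, adjusted p = 0.761). The mPFC had a median of 1.40 CPM (0.694 to 2.89) and exceeded the ACC, with 0.890 CPM (0.512 to 3.27), 1.40-fold (log2 0.49, SE 0.15, adjusted p = 0.00667). The DMT had a median of 0.277 CPM, but single libraries there reached 4.38 CPM. Of 15 pairs of regions 14 passed the test, and the BLA exceeded the ACC 7.53-fold (log2 2.91, SE 0.15, adjusted p = 1.212e-49). Crhr2 levels in the BLA and the DMT moved with choroid plexus genes from mouse to mouse, as described below.

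Crhbp, the gene of the binding protein, was high in the mPFC (10.7 to 24.3 CPM, median 19.1), the ACC (13.3 to 23.3 CPM, median 17.8) and the BLA (8.01 to 23.3 CPM, median 15.2). The ACC did not differ beyond its spread from the mPFC (log2 −0.15 for the ACC, SE 0.10, adjusted p = 0.269) or from the BLA (log2 0.11, SE 0.10, adjusted p = 0.343), and the mPFC exceeded the BLA 1.19-fold (log2 0.26, SE 0.10, adjusted p = 0.0201). The Nacc had the widest range in CPM, 3.396 to 27.2 with a median of 10.6. The vHipp had a median of 7.93 CPM (3.398 to 15.8). The DMT was lowest in 41 of 41 mice at a median of 0.653 CPM (0.0780 to 3.38), and the mPFC exceeded it 21.9-fold (log2 4.45, SE 0.13, adjusted p = 2.335e-90). In all 5 genes the levels come from bulk tissue, in which fewer cells of a type and less RNA per cell cannot be told apart.

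**Figure D1:**
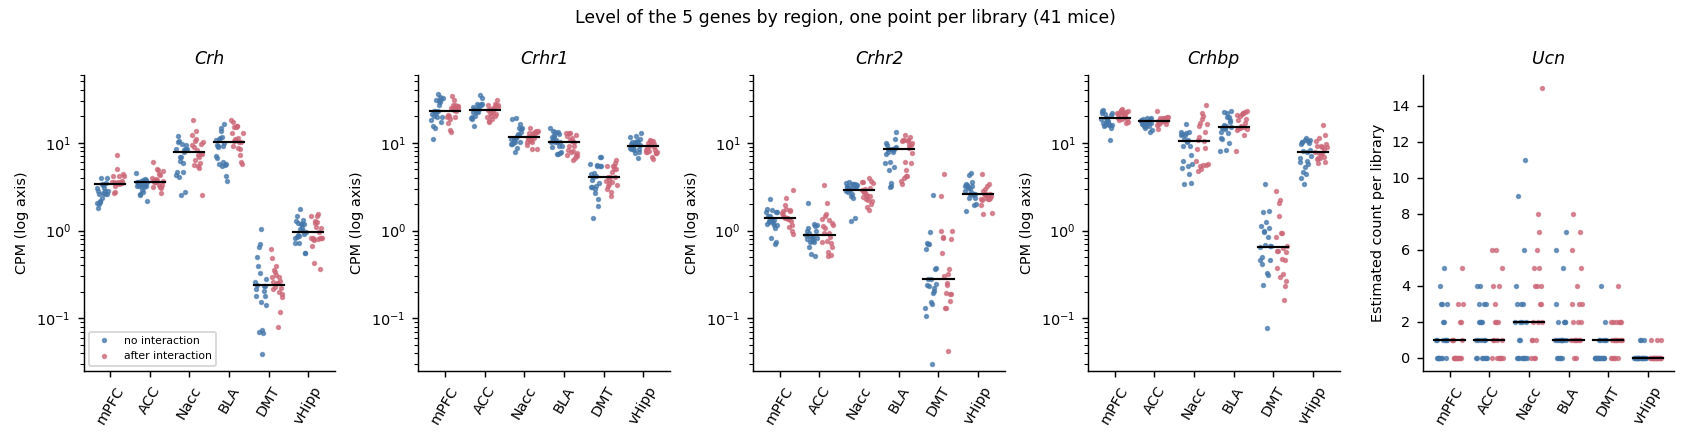
Levels of the 5 genes in each library by region, with mice without interaction in blue, mice after interaction in red and the median of 41 libraries as a bar. The first 4 panels show CPM on a log axis, with the 1 DMT library at 0 for Crhr2 drawn at the bottom, and the last shows Ucn as counts per library. Crh and Crhr2 are highest in the BLA, Crhr1 and Crhbp in the cortex, and Ucn reaches at most 15 counts.

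Social interaction for 10 min was compared with no interaction in each region, averaged over the 3 conditions, with 20 against 21 mice. Crh was higher after interaction in the mPFC and was the single member that passed the test in a single region. Without interaction its mPFC level ran from 1.79 to 4.02 CPM with a median of 2.79, and after interaction from 2.69 to 7.33 CPM with a median of 3.58. The sets overlap, but 18 of 20 mice after interaction lay above the median of the mice without. The difference was 1.36-fold (log2 0.45, SE 0.10, adjusted p = 0.00444), and 7.4% of 15812 genes passed the same test in the mPFC (4.81% higher and 2.59% lower). It stayed past the threshold under DESeq2, other size factors and other gene filters, with adjusted p from 0.00102 to 0.00575, and with any 1 of the 41 mice left out, with adjusted p from 0.00158 to 0.00963.

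Each condition was then taken alone for Crh in the mPFC, among 36 exact permutation tests (two-sided, on log2 values, 2 genes, 6 regions and 3 conditions) that were added after the result was seen. In Ctrl_Veh mice the level ran from 1.79 to 3.53 CPM (median 2.64) without interaction and from 3.43 to 5.03 CPM (median 3.57) after it, with 6 of 6 mice above the median without interaction (log2 0.50, exact p = 0.0152). In ELA_Veh mice it ran from 2.17 to 4.01 CPM (median 3.04) without and from 2.78 to 4.38 CPM (median 3.52) after interaction, with 6 of 7 above (log2 0.25, exact p = 0.0635). In ELA_SAFit2 mice it ran from 1.99 to 4.02 CPM (median 2.67) without and from 2.69 to 7.33 CPM (median 3.70) after interaction, with 7 of 7 above (log2 0.58, exact p = 0.0157). All 36 adjusted p-values were above the threshold. The response did not differ detectably between conditions: ELA_Veh less Ctrl_Veh was log2 −0.23 (SE 0.25, adjusted p = 0.868) and ELA_SAFit2 less ELA_Veh was log2 0.37 (SE 0.25, adjusted p = 1).

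In the other regions Crh did not pass the test. In the ACC it ran from 2.19 to 4.49 CPM (median 3.28) without and from 2.65 to 6.04 CPM (median 3.71) after interaction (log2 0.23, SE 0.08, unadjusted p = 0.00912, adjusted p = 0.119 by edgeR, with 4.15% of all genes called). In the BLA it ran from 3.69 to 16.2 CPM (median 9.14) without and from 5.68 to 18.2 CPM (median 10.9) after interaction (log2 0.38, SE 0.16, unadjusted p = 0.0264, adjusted p = 0.249 by edgeR, with 1.49% called). The sets overlap widely in both regions. The log2 difference was 0.27 (SE 0.18) in the Nacc, where 0 of 15881 genes passed by edgeR and 391 had an unadjusted p under 0.05, −0.06 (SE 0.28) in the DMT and −0.10 (SE 0.15) in the vHipp. The mPFC difference exceeded that in the vHipp by log2 0.56 in a two-sided permutation test within conditions (p = 0.00268, adjusted p = 0.0322 over 12 such comparisons, 20 against 21 mice). The mPFC was chosen for these comparisons after its result was seen, and the adjustment does not cover that choice. Against the mean of the other 5 regions the mPFC difference was larger by log2 0.26 (permutation p = 0.0480, adjusted p = 0.233), and against the BLA by log2 0.02 (permutation p = 0.901), so the difference was not shown to be particular to the mPFC.

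**Figure D2:**
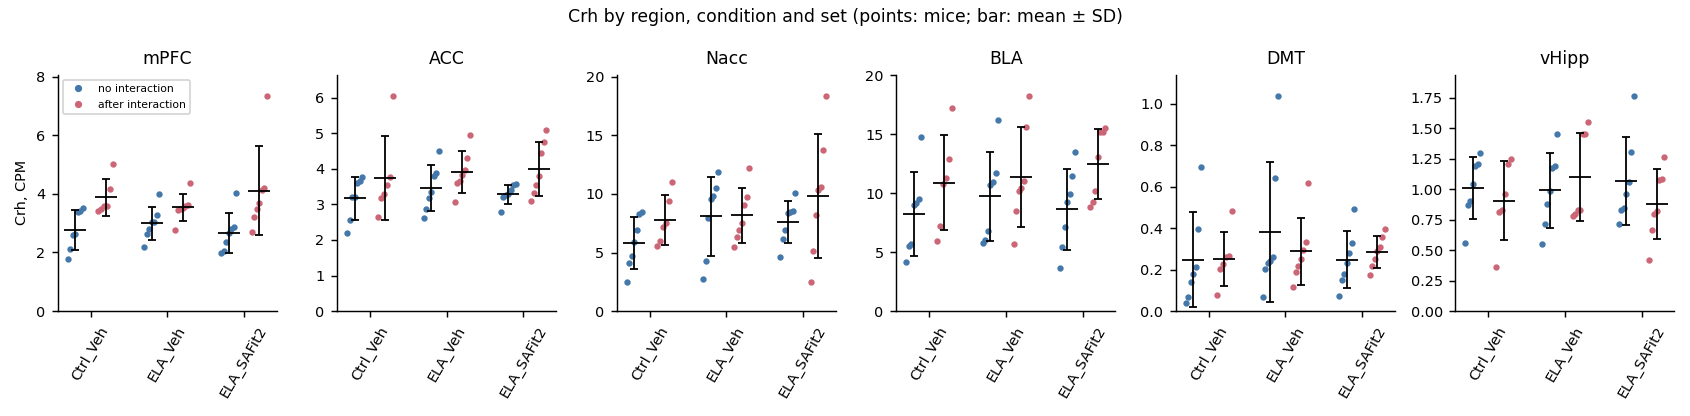
Crh in CPM by region and condition, one point per mouse, blue without interaction and red after it, with the mean ± SD of each group of 6 or 7 mice as a bar. In the mPFC the red points sit above most blue ones in each condition, with one ELA_SAFit2 mouse at 7.33 CPM, and in the vHipp the colours overlap.

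Crhbp, the gene of the binding protein, did not pass in a single region. In the mPFC it ran from 10.7 to 23.5 CPM (median 17.7) without and from 16.8 to 24.3 CPM (median 20.7) after interaction, with 18 of 20 mice after interaction above the median without (log2 0.19, SE 0.06, unadjusted p = 0.00619, adjusted p = 0.0696 by edgeR). In the ACC it ran from 13.3 to 19.3 CPM (median 16.98) without and from 14.2 to 23.3 CPM (median 18.1) after interaction (log2 0.11, SE 0.05, unadjusted p = 0.0182, adjusted p = 0.173 by edgeR). Its fitted difference was above 0 in all 6 regions, from log2 0.00 in the DMT to 0.35 in the Nacc, and passed the adjusted threshold in none of them. The receptors did not pass in any region, with fitted log2 differences of −0.17 to 0.05 for Crhr1 and −0.19 to 0.64 for Crhr2. The 0.64 was in the DMT (SE 0.44, adjusted p = 0.598 by edgeR), at few counts. Over all 25 tests of a member in a region, 1 was called and 5 had an unadjusted p under 0.05, beside 2.64% called and 13.2% with an unadjusted p under 0.05 among all tests of a gene in a region.

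With the mouse as the unit, counts of the 6 regions of a mouse were summed and 41 mice were compared. The sums hold the 12 Nacc libraries that matched another mouse better, for some of them a mouse of the other set. Crh was 1.25-fold higher after interaction (log2 0.32, SE 0.08, adjusted p = 0.00456) and Crhbp 1.13-fold higher (log2 0.17, SE 0.06, adjusted p = 0.0429), where 8.56% of 17381 genes were called. Crh had a median of 292 counts per library in the BLA and 242 in the Nacc, against 7 to 94 in the other regions. The BLA and the Nacc thus weigh most in its sum. The Crh call stayed without the Nacc (adjusted p = 0.0349 by edgeR). The Crhbp call was lost without the Nacc (log2 0.13, adjusted p = 0.0510) and when any of 25 of the 41 mice was left out, with adjusted p up to 0.0775 without Ctrl_Veh mouse 49. Ucn had log2 0.50 (SE 0.19, adjusted p = 0.0977), 0.33 without ELA_Veh mouse 93. Crhr1 had log2 −0.11 (SE 0.05, adjusted p = 0.215) and Crhr2 0.09 (SE 0.10, adjusted p = 0.641). A two-sided permutation test of the mean over regions of log2 normalized counts, which weights the regions equally, gave 0.23 for Crh (p = 0.00845, adjusted p = 0.201), 0.15 for Crhbp (p = 0.0708, adjusted p = 0.481) and 0.25 for Ucn (p = 0.0115, adjusted p = 0.201). None passed after adjustment over this family of 35 permutation tests.

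**Figure D3:**
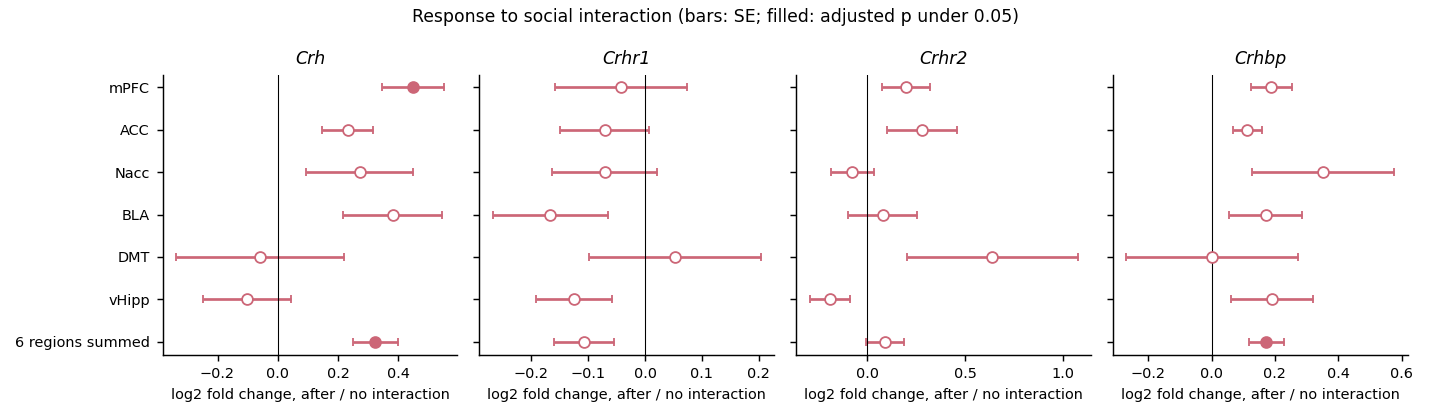
Log2 fold change after interaction against no interaction for Crh, Crhr1, Crhr2 and Crhbp in each region and in the 6 regions summed per mouse, with SE as bars and filled points past an adjusted p of 0.05. The x axes differ in range. Crh is filled in the mPFC (0.45) and in the sum (0.32), Crhbp in the sum (0.17), and no receptor is filled.

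The conditions were compared next, which asks for lasting effects of ELA and of SAFit2 on the genes. No member passed the adjusted threshold in any region, in the mice without interaction (0 of 72 tests of 4 genes, 2 with an unadjusted p under 0.05), in those after it (0 of 72, 2 unadjusted) or over both sets (0 of 75 with Ucn in the Nacc, 3 unadjusted). DESeq2 gave the same counts of 0, with 2, 2 and 3 tests at an unadjusted p under 0.05. Almost no gene passed in these comparisons: 0%, 0.000365% and 0.00421% of all tests did. In the mPFC over both sets, 0.00632% of genes passed for ELA_Veh against Ctrl_Veh (all higher), 0.0126% for ELA_SAFit2 against ELA_Veh (all lower) and 0.019% for ELA_SAFit2 against Ctrl_Veh (0.0126% higher and 0.00632% lower). An unadjusted p under 0.05 came with 4.36%, 3.89% and 4.73% of tests over all genes, near the share among the members. The 3 contrasts share groups, and each is given with its own values.

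The tests with an unadjusted p under 0.05 were these. Without interaction Crhbp in the BLA ran from 11.4 to 23.3 CPM (median 18.3) in Ctrl_Veh mice and from 8.01 to 17.2 CPM (median 12.9) in ELA_Veh mice, with overlap (log2 −0.49, SE 0.20, adjusted p = 0.975). After interaction the ELA_Veh median in the BLA was 18.2 CPM against 16.0 CPM in Ctrl_Veh mice. Without interaction Crhbp in the vHipp had a median of 9.96 CPM (4.61 to 10.7) in Ctrl_Veh and 5.68 CPM (3.398 to 10.1) in ELA_SAFit2 mice (log2 −0.55, SE 0.24, adjusted p = 0.881), and after interaction the medians were 7.67 and 8.91 CPM. Neither direction was thus seen in both sets.

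Crhr1 in the mPFC was higher in ELA_SAFit2 than in ELA_Veh mice, with medians of 25.6 CPM (18.7 to 34.5) and 19.8 CPM (13.4 to 26.0) after interaction (log2 0.37, SE 0.16, adjusted p = 0.969) and 21.9 and 18.3 CPM without it. From mouse to mouse Crhr1 there ran against striatal genes, as described below, and their part in this difference was not tested. Over both sets the difference was log2 0.32 (SE 0.14, unadjusted p = 0.0272, adjusted p = 0.734 by edgeR). In the same comparison Crhr2 in the mPFC had log2 −0.36 (SE 0.15, unadjusted p = 0.0184, adjusted p = 0.729 by edgeR), with medians of 1.64 CPM in ELA_Veh and 1.21 CPM in ELA_SAFit2 mice without interaction and of 1.60 and 1.40 CPM after it. The groups overlap in each of these. Crhr2 in the vHipp had a median of 2.78 CPM (2.27 to 4.37) in Ctrl_Veh and 2.27 CPM (1.54 to 2.56) in ELA_SAFit2 mice after interaction (log2 −0.48, SE 0.16, adjusted p = 0.985) and medians of 3.06 and 2.60 CPM without it, and over both sets log2 −0.28 (SE 0.13, adjusted p = 0.892).

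Crh itself had no condition difference with an unadjusted p under 0.05 in any single region. Its fitted log2 differences lay between −0.60 and 0.61 without interaction (both extremes in the DMT, where counts were fewest) and between −0.33 and 0.34 after it. Summed over regions, Crh without interaction was higher in ELA_Veh than in Ctrl_Veh mice by log2 0.29 (SE 0.13, unadjusted p = 0.0305, adjusted p = 0.834 by edgeR), and 0.24 as a mean over regions (two-sided exact permutation p = 0.103, 7 against 7 mice). Crhr1 summed over regions was higher in ELA_SAFit2 than in ELA_Veh mice by log2 0.16 over both sets (SE 0.06, unadjusted p = 0.0188, adjusted p = 0.765 by edgeR) and by 0.19 after interaction alone (SE 0.09, unadjusted p = 0.0418, adjusted p = 0.983 by edgeR). Ucn had log2 −0.50 (SE 0.24, adjusted p = 0.733) for ELA_Veh against Ctrl_Veh and 0.52 (SE 0.24, adjusted p = 0.841) for ELA_SAFit2 against ELA_Veh, in counts near the limit of detection. Of 75 tests of whether the response to interaction differed between conditions 0 passed (0.00772% over all genes) and 2 had an unadjusted p under 0.05 (3.97% over all genes): Crhr2 in the DMT (log2 2.61, SE 1.07, adjusted p = 1) and Crhbp in the vHipp (log2 0.67, SE 0.32, adjusted p = 0.984).

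**Figure D4:**
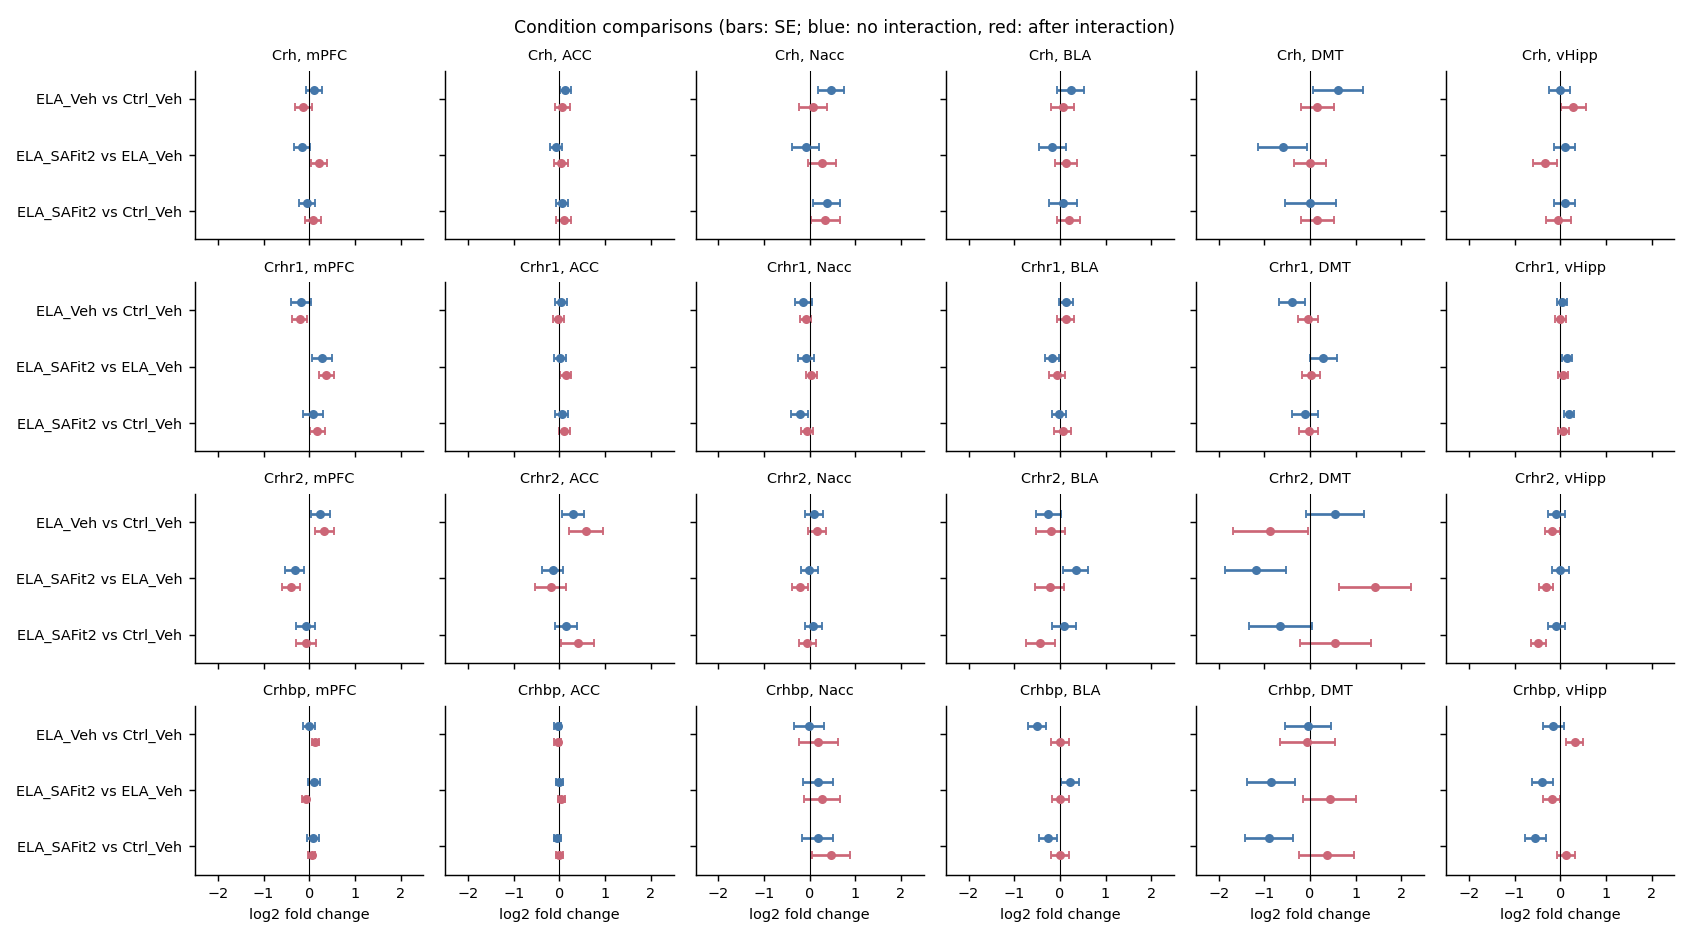
Log2 fold changes between conditions for 4 genes (rows) and 6 regions (columns), blue without interaction and red after it, with SE as bars. None passed an adjusted p of 0.05, and the bars are widest in the DMT.

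Of 50 further genes of CRH, stress hormone and cyclic AMP signalling, 0 passed in any comparison of conditions in a region. After social interaction 5 of 44 tested passed in the mPFC (4 higher, 1 lower, beside 7.4% of all genes called), 7 of 44 in the ACC (5 higher, 2 lower, beside 4.15%) and 5 of 47 in the BLA (3 higher, 2 lower, beside 1.49%). In the DMT 3 of 44 passed (all higher, beside 1.6%), in the vHipp 2 of 45 (1 each way, beside 1.21%) and in the Nacc 0 of 48 (beside 0%). The list's median log2 difference lay between 0.00 and 0.03 in every region, beside a median of all genes between −0.0034 and 0.0018. Fkbp5, which encodes the glucocorticoid-induced FKBP51, rose in 5 regions. In the mPFC it ran from 19.7 to 30.4 CPM (median 24.9) without and from 23.4 to 74.8 CPM (median 29.9) after interaction (log2 0.39, SE 0.09, adjusted p = 0.00589), and the other 4 regions gave log2 0.24 to 0.39. Crem, a cyclic AMP-responsive modulator of CREB, rose in the mPFC (log2 0.35, SE 0.05, adjusted p = 4.806e-06), the ACC, the BLA and the DMT.

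Bdnf, a neurotrophin gene that neuronal activity and CREB induce, rose in the mPFC (log2 0.64, SE 0.08, adjusted p = 1.733e-06), the ACC (log2 0.34) and the DMT (log2 0.44). Rgs2, a regulator of G-protein signalling, rose in the mPFC (log2 0.22) and the ACC (log2 0.23). Mapk3, which encodes the kinase ERK1, fell by 0.18 in the mPFC and by 0.17 in the ACC on the log2 scale. In the ACC Adcy3, an adenylyl cyclase gene, rose (log2 0.08) and Vipr2, a receptor gene of vasoactive intestinal peptide, fell (log2 −0.999, adjusted p = 0.0430). In the BLA Adcy8, another adenylyl cyclase gene, fell (log2 −0.26), Creb1 itself rose (log2 0.09) and in the vHipp Nr3c2, the mineralocorticoid receptor gene, fell (log2 −0.16).

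Ucn3, the ligand gene nearest to the 5 members, was lower in the BLA after interaction. It ran from 0.0313 to 5.42 CPM (median 0.5259) without and from 0 to 1.38 CPM (median 0.0785) after interaction (log2 −2.53, SE 0.57, adjusted p = 0.0189). After interaction Ucn3 had 0 counts in 6 of 20 libraries, so it was near the limit of detection in that set. Otp and Sim1, transcription factors of hypothalamic and medial amygdala neurons, moved with it in the same punches, with log2 −1.94 (SE 0.48, adjusted p = 0.0287) and −2.79 (SE 0.66, adjusted p = 0.0242). They were 2 of the 3 paraventricular hypothalamus markers tested there (of 4 on the list), which summed to 0.0432 to 5.79 CPM without and 0.133 to 1.98 CPM after interaction. Their part in the Ucn3 result was not tested.

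The same marker lists were set beside the Crh result in the mPFC. Of 9 genes of cortical interneuron types 0 passed after interaction, with a median log2 difference of 0.08. They ranged from −0.14 for Htr3a and −0.08 for Calb2 to the highest, that of Vip, the gene of a peptide that many CRH-positive cortical interneurons share, at 0.21 (SE 0.08, adjusted p = 0.125 by edgeR). Of 6 central amygdala markers 1 passed, Pnoc (log2 0.22, SE 0.06, adjusted p = 0.0145), which encodes prepronociceptin and is also made by cortical interneurons. Among the lists of cortical, striatal, thalamic, hippocampal, basolateral amygdala, lateral septum, habenula, choroid plexus, vessel and olfactory bulb genes 0 passed in the mPFC. Olfactory bulb genes summed to 22.6 to 202.8 CPM without and 24.9 to 316.5 CPM after interaction. Their part in the Crh result was not tested.

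Levels of the members also moved with punch composition from mouse to mouse within a region. Log2 levels of Crh, Crhr1, Crhr2 and Crhbp were correlated with the summed level of 13 marker lists in each region, 312 relations over 41 mice each, and the values here have permutation p = 1e-05, the smallest that 100000 permutations can give, for r and rho (adjusted p = 0.000136 and 0.000156). In the BLA Crhr2 followed choroid plexus genes (r = 0.909, rho = 0.918, r = 0.907 without the 2 farthest mice, r = 0.910 and 0.922 in mice without and after interaction). It did so in the DMT as well (r = 0.751, rho = 0.775, r = 0.706 without the 2 farthest). In the 11 BLA libraries with a choroid sum under 500 CPM Crhr2 had a median of 3.94 CPM (3.10 to 5.93), and in the 30 over it 8.81 CPM (5.26 to 13.1), with r = 0.717 and 0.802 within these 2 sets of libraries. Crhbp in the Nacc followed cortical glutamatergic genes (r = 0.927, rho = 0.939, r = 0.921 without the 2 farthest), and in the BLA basolateral amygdala genes (r = 0.841, rho = 0.818, r = 0.785). Crh in the BLA followed central amygdala genes (r = 0.758, rho = 0.705, r = 0.700). The relation was not particular to the BLA. Nor does the list mark the central amygdala alone. Its Prkcd is also on the thalamic list, its Wfs1 on the hippocampal list and its Tac2 on the habenula list. In the Nacc the central amygdala list was followed by Crh (r = 0.726, rho = 0.627, r = 0.598) and by Crhr2 (r = 0.763, rho = 0.644, r = 0.690). Both had permutation p = 1e-05 for r and 2e-05 for rho (adjusted p = 0.000136 and 0.000215). Crhr1 in the mPFC ran against striatal genes (r = −0.815, rho = −0.880, r = −0.779), as it did in the ACC (r = −0.780, rho = −0.839, r = −0.743). In the mPFC Crh had a pair of relations of equal size. It ran against striatal genes (r = −0.458, rho = −0.310, permutation p = 0.00309 and 0.0498, adjusted p = 0.0130 and 0.130, r = −0.395 without the 2 farthest) and with the cortical interneuron genes (r = 0.458, rho = 0.287, permutation p = 0.00323 and 0.0699, adjusted p = 0.0134 and 0.167). The interneuron relation fell to r = 0.167 without the 2 farthest mice, so it rests on those mice. How far composition enters the regional levels or the differences between conditions was not tested.

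The genes most like each member were found by Pearson correlation of log2 levels over all libraries, after the mean of each of the 36 groups of region, condition and set had been taken out. They are a description, with no test, and the libraries share mice. For Crhr2 they were Car12 (r = 0.753), a carbonic anhydrase gene, Kl (r = 0.731), the klotho gene that is itself one of the choroid plexus markers, and Cfap44 (r = 0.660), a gene of motile cilia. Within the BLA alone they reached r = 0.905, 0.948 and 0.928, and within the mPFC 0.400, 0.2 and 0.288. For Crhbp they included Tbr1 (r = 0.601), a transcription factor of cortical projection neurons that is itself one of the cortical glutamatergic markers, and 1700016K19Rik (r = 0.592). Tbr1 reached r = 0.940 with Crhbp within the Nacc and 0.150 within the mPFC. For Crhr1 they were Elfn1 (r = 0.616), a synaptic adhesion protein gene of interneurons, Cygb (r = 0.601), the cytoglobin gene, and Tmem266 (r = 0.6). By region r ran from 0.489 to 0.745 for Cygb and from 0.405 to 0.813 for Tmem266, while Elfn1 had −0.074 in the vHipp and 0.518 to 0.840 elsewhere.

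For Crh the likest genes were Lhx5 (r = 0.434), a LIM homeobox factor, Tbc1d4 (r = 0.428) and Rtl5 (r = 0.414). Tbc1d4 reached r = 0.770 with Crh in the BLA and 0.719 in the Nacc, but −0.210 in the ACC. For Ucn, at its few counts, they were Nrn1 (r = 0.441), Ppia (r = 0.420) and Slc30a3 (r = 0.409).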

How the data were processed

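The deposited table gives, for every gene, the estimated counts of paired-end fragments that the authors obtained with salmon (named in its title), with no scaling for depth or length. The submitters' processing notes name STAR, DESeq2 and the build GRCm39 (mm39). Versions, annotation release and the strand setting are not given in the sources used here. Conditions, sets and mouse numbers came from the sample titles and treatments. Values were rounded (12.12% were not whole), 0 libraries were identical, and total counts were 20804247 to 43351424, so that genes under about 10 counts in a library carry a large counting error. Intervals and floors cover counting error only.

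Identifiers were matched without version to GENCODE M21 (52073 of 56691 genes) or by RefSeq symbol (978), and 3640 without a type were set aside. The tests took protein-coding genes that reached 100 counts in sum and were seen in 6 or more libraries, with edgeR 4.0.16 (TMM, quasi-likelihood test, Benjamini-Hochberg adjustment over all genes tested) in R 4.3.3. DESeq2 1.42.0 was an alternative. Ucn passed this filter in the Nacc over both sets, in the fit over regions and in counts summed per mouse, and the 4 other members passed in every region. Levels are CPM on TMM library sizes over all 246 libraries. Single values were tested by permutation on the log2 scale (1 added to each normalized count) (two-sided, exact between 2 conditions, 100000 regroupings within conditions otherwise). Permutations ran in NumPy 2.4.6 under Python 3.11.15, and figures were drawn with Matplotlib 3.10.9.

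Region fits held 41 libraries in 6 groups for the interaction and both-set contrasts, and 21 or 20 libraries in 3 groups within a set. Libraries of a mouse share its number in every region, and deviations from group means correlated between regions of a mouse (median r 0.118 over 15 pairs of regions, lowest 0.052). The number in the titles was taken to name the mouse, and outside the Nacc 0 libraries matched another number better by expression. Counts of independent libraries were simulated for the mPFC interaction contrast (15812 genes). Of 200 genes changed by log2 0.5, drawn from those with a mean count over 20, 88.5% were recovered with 16 false calls. For conditions, only ELA_Veh against Ctrl_Veh in the Nacc without interaction was simulated, at log2 1 (92% recovered by edgeR, 12 false calls). The 88.5% thus does not carry over to the condition comparisons. Recovery of genes with fewer counts was not simulated.

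Alternatives were DESeq2, RLE size factors, no count filter, all gene types, a fit of 6 groups, a block for the mouse, and the data without the 12 Nacc libraries or without the Nacc. The members, gene lists and tests were chosen with earlier results of these data known. All 5 members are named, with full values where an unadjusted p was under 0.05, then the 3 genes most like each member (1 of those for Crhbp is not reported here), pathway genes past the threshold (up to 6 per comparison by p, and the seventh of the ACC beside them), and markers as their list needs. Otp, Sim1 and Pnoc were named after their values were seen.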

Additional observations from a re-analysis of the deposited data

Results flagged for a closer look

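Within the 144 groups of 6 or 7 mice (4 genes without Ucn), 8 held a mouse whose gap to the nearest other was too large a part of the range by Dixon's test on log2 values, where chance gives about 1 in 20 groups. Crhr2 was low in the BLA of Ctrl_Veh mouse 65 without interaction (3.10 CPM, next 7.44) and of Ctrl_Veh mouse 89 after interaction (3.38 CPM, next 8.76), whose choroid plexus sums were 9.92 and 7.46 CPM against a BLA median of 2588 CPM. Crhr2 was low in the Nacc of Ctrl_Veh mouse 65 (1.29 CPM, next 2.37) and of ELA_Veh mouse 99 (1.38 CPM, next 2.82), both without interaction. The central amygdala list, which does not mark that nucleus alone, summed there to 383.1 and 281.9 CPM against a Nacc median of 671.1 CPM. Crhr2 was at 0 CPM in the DMT of Ctrl_Veh mouse 97 without interaction (next 0.223). Crh was low in the vHipp of Ctrl_Veh mouse 57 after interaction (0.363 CPM, next 0.817). Crhbp was high in the DMT of Ctrl_Veh mouse 89 after interaction (2.86 CPM, next 0.474), with a choroid plexus sum of 881.5 CPM against a DMT median of 23.3 CPM, and low in the mPFC of ELA_Veh mouse 99 without interaction (10.7 CPM, next 16.1).

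The difference of Crh after interaction was larger in the mPFC than in the vHipp by log2 0.56 in a permutation test of the difference itself (p = 0.00268, adjusted p = 0.0322 over 12 comparisons), which was added after the mPFC result was seen.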

How the results depend on the processing

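Of 60 recomputed counts of calls, 58 stayed within 1.5 times the reported one. The exceptions were the pairs of regions that differed for Ucn (7 in place of 11 with the mice without interaction alone) and the calls with the mouse as the unit (1 in place of 2 without the Nacc). In a region, the counts for condition comparisons and condition effects on the response were 0 under every setting. Almost no gene passed there, so the agreement of those counts says little. With the mouse as a replicate block the regional calls were 14 for Crh, 13 for Crhr1, 14 for Crhr2, 13 for Crhbp and 10 for Ucn, so the block moved Ucn alone, by 1. No paired analysis was possible between conditions or sets because they share no mouse. Crhbp summed over regions, higher after interaction by log2 0.17, passed neither without the Nacc (0.13) nor in the permutation test of the mean over regions (0.15), the latter with regions weighted equally. In that permutation test Crh had an unadjusted p of 0.00845 and an adjusted p of 0.201 over 35 tests, so it did not pass after adjustment either. Leaving out 1 mouse at a time gave log2 0.38 to 0.49 for Crh in the mPFC, 0.29 to 0.35 for Crh summed and 0.15 to 0.19 for Crhbp summed, and Crhbp in the mPFC passed in 4 of 41 such fits. Those fits were added after the data were seen. No difference between conditions or sets with an unadjusted p under 0.05 changed sign under the alternatives run. Others did, as for Crhr2 in ELA_Veh against Ctrl_Veh mice without interaction. It had log2 −0.03 summed over regions and 0.10 as a mean over regions. Without the 12 Nacc libraries no member passed in the Nacc, as with them, so this says little about the mouse labels. Depth limits Ucn everywhere and Crh, Crhr2 and Crhbp in the DMT.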
